A study of Drosophila melanogaster with 3 samples.

Results

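The 49 genes described here encode subunits of Mediator, TBP-associated factors (TAFs) and the general factors named TFII of RNA polymerase II. They are the protein-coding genes of the BDGP6 gene models whose symbol starts with MED and a digit, Taf and a digit, or TfII, 49 of 13968 in all. By family they are 25 Mediator genes, 15 TAF genes and 9 TfII genes. The measurement was the binding of the BTB-domain protein BtbVII near their transcription start sites (TSSs); a BTB domain is a fold through which proteins pair. Chromatin immunoprecipitation and sequencing (ChIP-seq) with an anti-GFP antibody was done on embryos of both sexes, 0 to 24 h old, from a transgenic line that stably makes BtbVII with enhanced GFP (eGFP) at its C terminus. All 3 biological replicates carry that fusion and form 1 group with no control group, so nothing below compares conditions, and no p-value is given. Each library mixes the cell types and ages of a whole embryo, and the labels used here do not say which promoter drives the fusion or whether an untagged copy remains.

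Mediator is a large complex that carries signals from DNA-bound activators to RNA polymerase II. It is built of a head and a middle, which contact the polymerase, a tail, which meets many activators, and a detachable kinase module. TFIID, made of TBP and the TAFs, binds core promoters, and TFIIA, TFIIB, TFIIE, TFIIF and TFIIH then help place the polymerase and open the DNA. Most of these genes are used in nearly every cell of the embryo, and their products act at most protein-coding genes.

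A called region has a summit, the base of highest enrichment, and a signal value given by the authors' peak caller. A summit of the list pooled over the replicates is called a candidate, and those in the authors' optimal list, which passed an irreproducible discovery rate threshold, are called strong. The 5219 strong regions were the 5219 of highest signal among the 30000 pooled regions, with a lowest signal of 172.4. A gene counts as having a summit if the distance to the closest of its TSSs is at most 1000 bp, and its best summit is the one of highest signal in that window. The scale of the signal differs between lists, so replicates are compared by the rank of the region that holds the summit in each list of 30000.

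The sequences under the 5 strongest summits, leaving out 1 chromosome arm, are printed to show what the bound stretch reads like at each gene, and the 44 bases between Taf10 and its paralog Taf10b to show how close those starts lie. Each of these 5 is 101 bases of the plus strand of dm6 centred on the summit, 5′ to 3′, and capitals mark matches on either strand to any of 10 short motifs that were searched. In MED30 the capitals mark the Zeste letters (TGAGTG) and in MED17 the TATA box letters (TATAAA), wherever these lie relative to a TSS. In Taf4 they mark an A tract read from the other strand. In MED27 the TATA box letters are followed by the BEAF-32 core (CGATA) read from the other strand, and the last sequence holds that core alone. No motif matched at MED15.
MED15 (chr2L:472432-472532): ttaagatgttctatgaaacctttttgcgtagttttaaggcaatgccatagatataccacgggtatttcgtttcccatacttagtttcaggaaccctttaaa
MED30 (chr3L:654195-654295): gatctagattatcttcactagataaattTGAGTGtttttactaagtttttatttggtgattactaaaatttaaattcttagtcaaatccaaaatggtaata
MED17 (chr3R:18188844-18188944): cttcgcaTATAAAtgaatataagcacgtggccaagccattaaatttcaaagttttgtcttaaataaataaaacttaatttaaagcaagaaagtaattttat
Taf4 (chr3L:16113608-16113708): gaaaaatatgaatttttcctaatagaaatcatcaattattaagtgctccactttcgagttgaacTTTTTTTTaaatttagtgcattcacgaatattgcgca
MED27 (chr3R:5654942-5655042): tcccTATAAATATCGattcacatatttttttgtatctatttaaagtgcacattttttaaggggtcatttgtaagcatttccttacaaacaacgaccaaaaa
Taf10 and Taf10b (chr2L:2767846-2767889): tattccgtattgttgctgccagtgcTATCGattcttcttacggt

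BtbVII candidates lay near 35 of the 49 genes (71.4%), against 53.1% of all protein-coding genes, which include them. Strong summits lay near 17 of those 35 (48.6%, 95% interval 31.4 to 66.0), against 42.1% of all protein-coding genes with a candidate. Of all 49 genes, 34.7% (21.7 to 49.6) had a strong summit, against 22.3% of all protein-coding genes. Both intervals, which are exact (Clopper-Pearson) and cover counting error only, hold the value over all genes. They are for strong summits, and no interval is given for the share with a candidate. By family, 9 of 25 Mediator genes (36.0%, 18.0 to 57.5), 5 of 15 TAF genes (33.3%, 11.8 to 61.6) and 3 of 9 TfII genes (33.3%, 7.49 to 70.1) had a strong summit, and the intervals overlap widely.

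Each replicate was also counted alone. With the 5219 regions of highest signal in each list, 17, 18 and 14 of the 49 genes had a summit in replicates 1, 2 and 3. As shares these were 34.7%, 36.7% and 28.6% of the members, against 22.1%, 22.9% and 22.0% of all protein-coding genes. The mean was 33.3 ± 4.22% for the members and 22.3 ± 0.493% for all genes (SD, n = 3). Of the genes with any region of the replicate in the window, the share was 53.1%, 69.2% and 36.8% of the members, against 40.8%, 41.8% and 38.8% of all genes, so in replicate 3 it was lower for the members. In all 3 replicates a summit in the top 5219 was found at 10 members (20.4%), against 15.2% of all protein-coding genes.

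**Figure D1:**
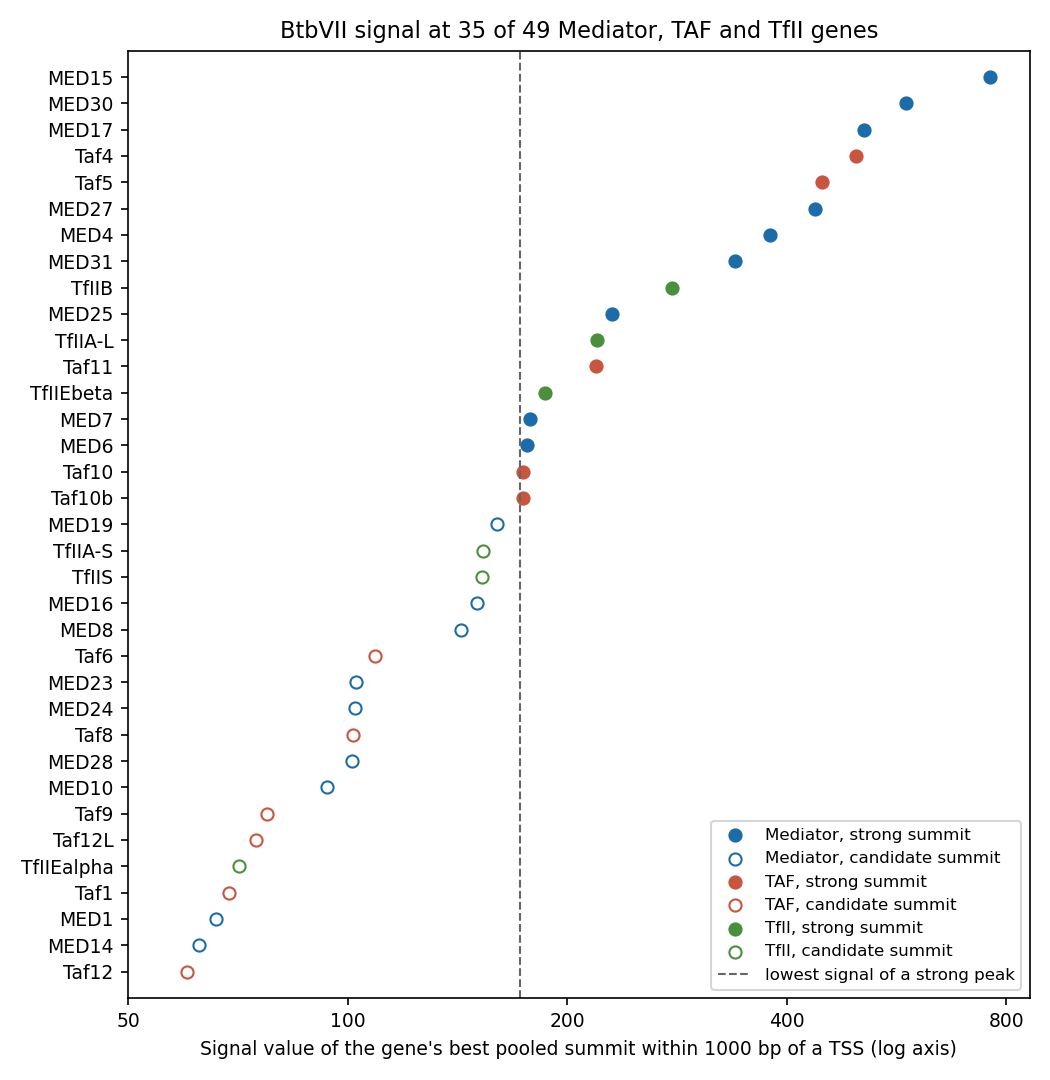
Signal value (log axis) of the best pooled summit within 1000 bp of a TSS for the 35 of 49 genes that had one, 1 row per gene. Filled points are strong summits, open points candidates of lower signal, colours are the families, and the dashed line is the lowest strong signal, 172.4. The 17 strong genes run from MED15 at 758.7 to Taf10 and Taf10b at 173.7 with no family kept to one end.

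Over the 17 genes with a strong summit, the median signal was 278.6 (range 173.7 to 758.7), against 287.5 over all 3119 protein-coding genes with one. The members were spread over the range of signals, since MED15 lay above 89.7% of those 3119 genes, TfIIB above 48.0% and Taf10 above 0.962%. The 95% interval of the members' median was 186.2 to 446.5. The median distance to the TSS was 154 bp (83 to 189), against 189 bp over all genes. For 16 of the 17 genes (94.1%) the best summit lay upstream, against 74.7%. No interval is given for this share, and the part of divergent neighbours in it was not tested.

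Among the tail subunits, which meet activators, all 5 genes had a candidate and MED15 and MED25 had a strong summit. MED15, a tail subunit that binds activators in yeast, had the strongest summit of the 49 genes, with signals of 323.0, 345.4 and 122.6 in replicates 1, 2 and 3 at ranks 264, 273 and 547. It lay in intergenic sequence (chr2L:472353-472635, pooled signal 758.7) 531 bp upstream of MED15 but 282 bp upstream of CG4297, which is transcribed away from it on the other strand. Among the members' best strong summits, it was the sole one more than 500 bp from the member's TSS. MED25 had a pooled signal of 230.2 at 345 bp upstream (chr3R:20008377-20008826), with ranks of 2838, 2647 and 5233, the last just past rank 5219. That summit was 90 bp from the TSS of Hs6st, a heparan sulfate sulfotransferase gene, and MED25 had another strong summit, of signal 172.5, 65 bp upstream. The other tail genes stayed below the strong set, with MED16 at 150.4, MED23 at 102.7 and MED24 at 102.2.

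MED30, MED27 and MED28 lie where the head and tail of animal Mediator meet, and MED30 and MED27 had strong summits in short gaps between genes. At MED30 the signals were 180.5, 277.1 and 95.26 in replicates 1, 2 and 3, at ranks 928, 448 and 912 (chr3L:654020-654469, pooled signal 582.1). Its summit was 156 bp upstream of MED30 and 118 bp upstream of Rev1, a DNA polymerase gene of damage tolerance. MED27 had signals of 153.2, 195.1 and 68.73, at ranks 1257, 888 and 1818 (chr3R:5654767-5655216, pooled signal 437.6), 147 bp upstream of MED27 and 131 bp upstream of elm. All of these ranks lie well inside the top 5219. MED28 had a candidate 3 bp past its TSS with a signal of 101.5.

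Of the 7 head genes, 3 had a candidate, and MED17 and MED6 had a strong summit. MED17, a scaffold of the head, had signals of 188.4, 196.4 and 106.5 at ranks 855, 877 and 738, the most even of the leading members (chr3R:18188669-18189118, pooled signal 510.2). The summit was 178 bp upstream of MED17 and 187 bp upstream of CG12321, almost midway. MED6 stood near the threshold, at 176.1, and its summit lay 83 bp upstream of 1 of its 5 TSSs, inside a MED6 intron and the 5′ UTR of Naa80, a gene for an N-terminal acetyltransferase. Its ranks of 3996, 6402 and 4046 put it in the top 5219 of replicates 1 and 3, and in replicate 2 a different summit, 38 bp downstream of a MED6 TSS, held rank 4920. MED8 had a candidate at 142.9, and MED11, MED18, MED20 and MED22 had none within 1000 bp.

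Of the 9 middle genes, MED4, MED31 and MED7 had a strong summit. MED4 had signals of 131.4, 170.1 and 51.55 at ranks 1690, 1176 and 3221, and a pooled signal of 379.3 (chr3L:7250491-7250940). Its summit lay 189 bp upstream, in an exon of the antisense RNA gene asRNA:CR43470, and no other coding TSS was within 1000 bp of it. MED31 had signals of 112.4, 163.8 and 67.93 at ranks 2267, 1262 and 1851 (chr3R:4641550-4641999, pooled signal 339.7), and its summit, 188 bp upstream, was 63 bp inside CG9775. MED7 was seen unevenly by the replicates. Its summit (177.6, 83 bp upstream, facing Cap-H2, a condensin subunit gene) held rank 2272 in replicate 2 and 7010 in replicate 3, and lay in no region of replicate 1. MED19 (160.2), MED10 (93.8) and MED1 (65.92), the last known as a contact of nuclear receptors, had candidates only, and MED9, MED21 and MED26 had none. MED14, the backbone that joins the modules, had a candidate of 62.47.

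Of the 14 genes for TFIID TAFs, 10 had a candidate and 5 a strong summit. Taf4, a histone-fold subunit, had signals of 221.3, 182.0 and 93.89 at ranks 629, 1027 and 940 (chr3L:16113433-16113882, pooled signal 498.1). That summit lay in a Taf4 intron, 132 bp upstream of an alternative start among its 3 TSSs and 1032 bp from Zn72D, so Taf4 is the gene nearest to it. Taf5, a scaffold subunit with a WD repeat domain, had signals of 180.9, 160.3 and 96.15 at ranks 921, 1311 and 897 (chr2R:10879602-10880051, pooled signal 446.5). The summit lay almost midway between its TSS, 154 bp away, and that of Pex6, a peroxisome biogenesis gene, 147 bp away.

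The other strong TAF genes were closer to the threshold. Taf11, a histone-fold partner of Taf13, had a pooled signal of 218.7 with ranks of 3096, 3529 and 6195, and its summit was 195 bp upstream in the 5′ UTR of und, 32 bp upstream of 1 of that gene's TSSs. Taf10 and Taf10b, paralogs with histone folds, lie head to head with 45 bp between their TSSs and shared 1 summit of signal 173.7, so they are 2 of the 17 genes but 1 site. It lay 61 bp upstream of Taf10 and 16 bp downstream of Taf10b, and its ranks were 4702, 4848 and 16541, the last far outside the top regions of replicate 3. A different summit of replicate 3, 434 bp downstream of the Taf10 TSS, held rank 6724. Below the strong set were Taf6 (108.9), Taf8 (101.7), Taf9 (77.55), Taf1 (68.82) and Taf12 (60.16). Taf2, Taf3, Taf7 and Taf13 had no candidate within 1000 bp. Taf12L, a testis paralog of Taf12, had a candidate of 74.98.

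Of the 8 genes for TFIIA, TFIIB, TFIIE and TFIIF subunits, 5 had a candidate and 3 a strong summit. TfIIB, which links TBP on the promoter to the polymerase, had signals of 96.66, 115.9 and 48.27 at ranks 3001, 2390 and 3695 (chr2L:10430814-10431263, pooled signal 278.6). Its summit was 299 bp upstream of TfIIB and 121 bp upstream of Bug22, a gene of cilia. TfIIA-L, for the large TFIIA subunits, had 220.0 at an internal start, 122 bp upstream of it and 126 bp upstream of pll, the kinase gene of Toll signalling. That summit held rank 2957 in replicate 1 and 7109 in replicate 3, and lay in no region of replicate 2. TfIIEbeta had 186.2 at 47 bp upstream with ranks of 5595, 3652 and 9598. TfIIA-S (153.1) and TfIIEalpha (71.05), the partners of TfIIA-L and TfIIEbeta in their complexes, had candidates only. TfIIFalpha, TfIIFbeta and TfIIA-S-2 had none. TfIIS, which rescues arrested polymerase during elongation, had a candidate of 152.7.

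**Figure D2:**
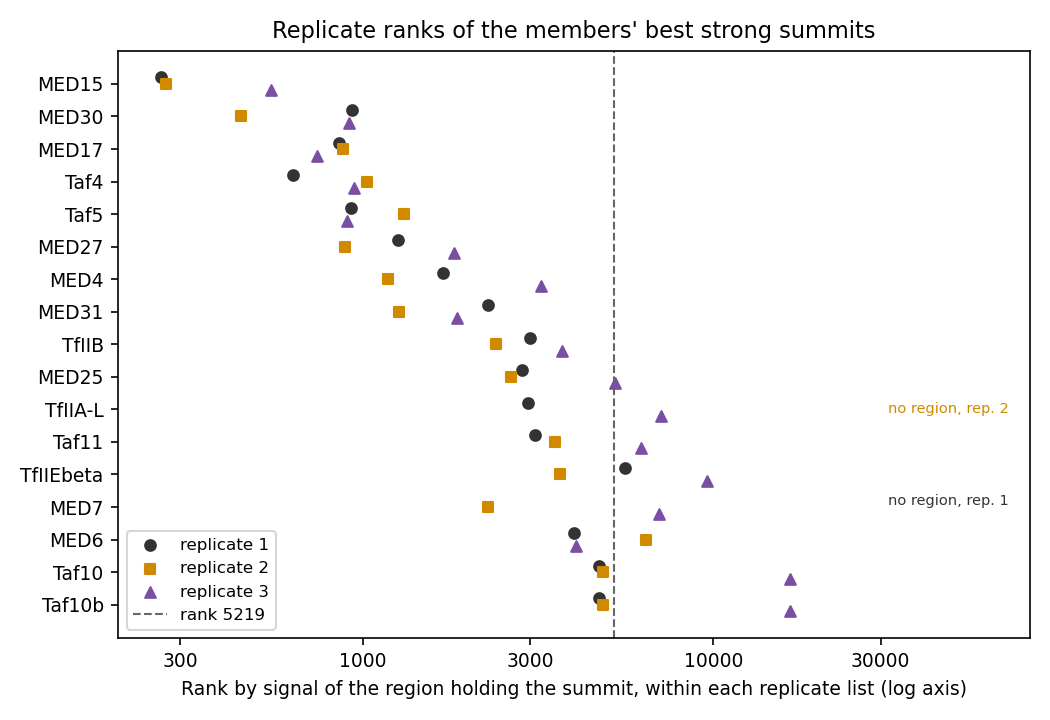
Rank by signal (log axis) of the replicate region that holds each member's best strong summit, with 1 point per replicate and the dashed line at rank 5219. The 9 genes from MED15 down to TfIIB have all 3 points left of the line, and the 8 genes of lower pooled signal each have at least 1 replicate right of it or with no region.

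All 3 replicates placed the best summit of 9 of the 17 genes (52.9%) in their top 5219 regions, against 62.4% over all protein-coding genes with a strong summit. The 9 were the 9 members of highest pooled signal, MED15 to TfIIB. The pooled list was made from these same replicates, so part of this order is built in. Another 5 genes had 2 replicates and 3 genes had 1, against 768 and 381 of the 3119 protein-coding genes with a strong summit. Where a replicate had a region at the member's summit, its own summit was a median of 14 bp from the pooled one, against 18 bp over all genes. It was within 50 bp in 41 of 49 cases (83.7%), against 79.3% over all genes, with the summit of Taf10 and Taf10b counted for each gene. At Taf10, where the ranks were far apart, the replicate summits were 29, 4 and 7 bp from the pooled one.

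The values on either side of the threshold were close together. Just inside it were TfIIEbeta (186.2), MED7 (177.6), MED6 (176.1) and the Taf10 pair (173.7), and just outside it MED19 (160.2), TfIIA-S (153.1), TfIIS (152.7), MED16 (150.4) and MED8 (142.9). In single replicates all 5 of those just outside ranked among the top 5219: MED19 and MED8 did in replicate 1, MED16 and TfIIA-S in replicate 2, and TfIIA-S and TfIIS in replicate 3. The members' signals thus run on past the threshold without a wide gap.

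For the 14 genes without a candidate in the window, the nearest one was 1042 bp away at MED9 and 1124 bp at TfIIA-S-2. It was between 2244 and 15605 bp away at Taf13, MED18, MED11, MED22, TfIIFalpha, TfIIFbeta, MED26, Taf2, MED20, Taf7 and Taf3, and 762989 bp away at MED21. Both members on chromosome 4, MED26 and Taf3, are in this set, as are 3 of the 5 on X. No share of all genes without a candidate is given by chromosome. Strong summits were at 5 of 9 members on 2L, 1 of 5 on 2R, 4 of 14 on 3L and 7 of 14 on 3R. Of all protein-coding genes on those arms, 21.7%, 22.7%, 24.8% and 22.1% had one. On X it was 0 of 5 members, against 20.3%, and on chromosome 4 it was 0 of 2, against 16.2%. With so few members on an arm, these counts show nothing particular to them. A gene without a summit in a list of fixed length is not shown to lack BtbVII.

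**Figure D3:**
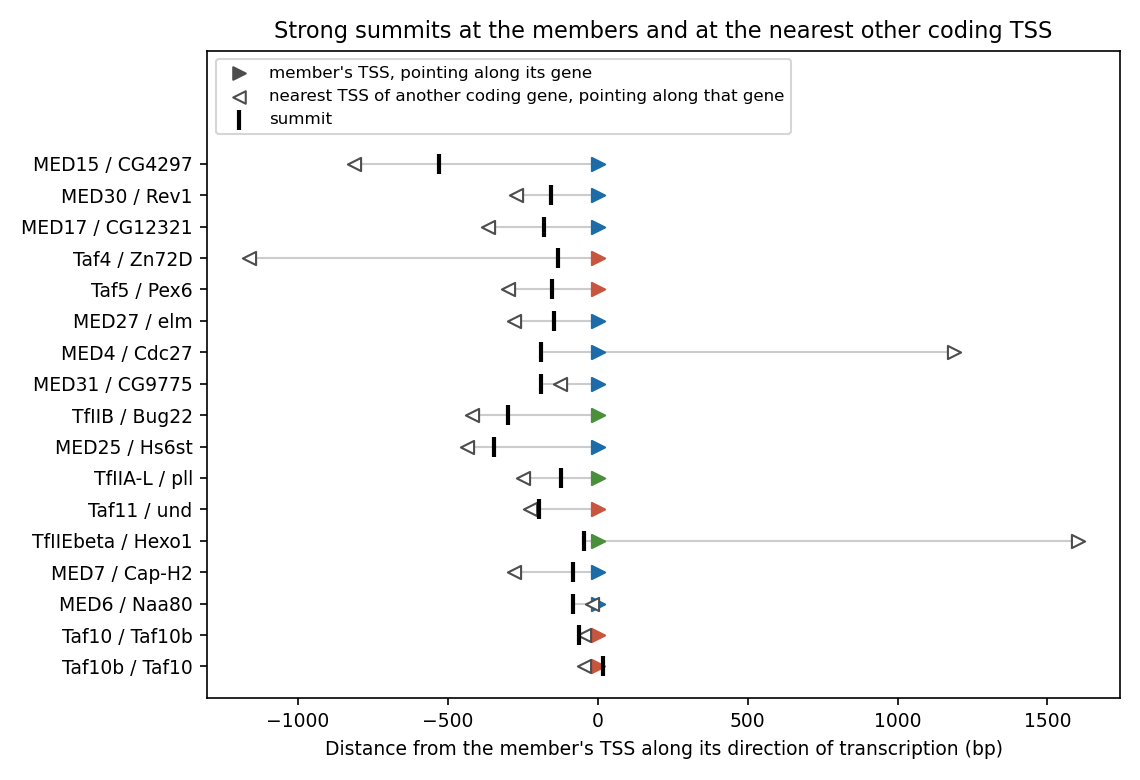
Position of the best strong summit (black bar) and of the nearest TSS of another coding gene (open triangle) relative to each of the 17 members' TSS, in bp along the member's direction of transcription. Triangles point along each gene. The summit lies between the member and a gene pointing away from it, with both TSSs within 1000 bp of the summit, in 10 rows, and 16 of 17 bars are left of the member's TSS.

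Most members begin close to a gene that runs the other way. A divergent coding TSS lay within 1000 bp upstream of 36 of the 49 genes (73.5%), against 36.2% of all protein-coding genes. The strong summits of the members often had another gene's TSS nearby. The member's own TSS was the nearest coding TSS for 7 of the 17 genes (41.2%), against 73.3% over all genes with a strong summit. Another coding TSS was within 1000 bp of the summit for 14 of the 17 genes (82.4%), against 54.1%. In 10 of 17 (58.8%) the summit lay between the member and a divergent coding TSS, both within 1000 bp, against 30.9%. These 10 were MED15, MED30, MED17, Taf5, MED27, TfIIB, MED25, TfIIA-L, Taf11 and MED7. The lists do not say which gene of such a pair a summit belongs to.

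The members were also set beside genes with the same kind of neighbour, first counting genes without a candidate too. Of the 36 members with a divergent coding TSS upstream, 15 (41.7%) had a strong summit, against 34.3% of 5052 such genes. Among those without another coding TSS within 1000 bp it was 2 of 13 (15.4%), MED4 and TfIIEbeta, against 15.3% of 7983. The members had a mean of 1.2 TSSs, against 1.41 over all genes. The part of gene spacing and of the number of TSSs in the members' count was not tested.

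**Figure D4:**
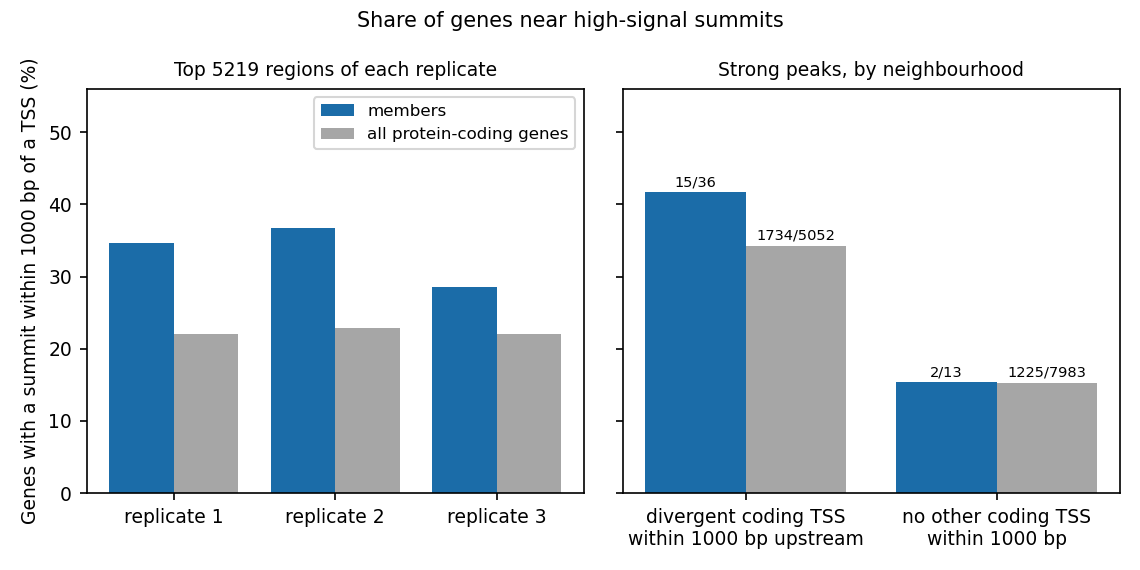
Percentage of genes with a summit within 1000 bp of a TSS, for the 49 members and for all protein-coding genes. The left panel uses the top 5219 regions of each replicate, where the members are at 34.7%, 36.7% and 28.6% against 22.0 to 22.9%, and the right panel uses strong peaks by neighbourhood, with the counts above the bars.

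The 16 distinct member summits were read over 100 bp on each side. GC content was 32.3 ± 6.63% (SD, n = 16 summits, range 21.4 to 45.8%), against 38.0 ± 8.65% at the 2281 distinct best summits of all protein-coding genes. The TATA box letters TATAAA were in 7 of the 16 (43.8%, 95% interval 19.8 to 70.1), wherever they lay relative to a TSS. This was against 33.0% of the 2281 and 29.2% of 201-base windows centred on the 5′ ends of all 13968 genes. The A tract, AAAAAAAA, was in 4 (25.0%, 7.27 to 52.4), against 13.3% and 9.97%, and the Zeste letters TGAGTG in 3 (18.8%, 4.05 to 45.6), at MED30, MED4 and MED7, against 9.47% and 8.71%. CGATA, the core bound by the boundary protein BEAF-32, was in 5 (31.2%), at MED27, MED25, Taf11, MED7 and the Taf10 pair, against 30.6% and 39.3%. The E-box CAGCTG was in 2 (12.5%), against 11.0% and 13.8%.

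GAGAGA, which the product of the BTB gene Trl binds, was in none of the 16 windows (95% interval 0 to 20.6%), against 13.2% of all summits. Within 250 bp of the summit it was in 6.25%, against 31.4%. The DRE letters TATCGATA, which contain the BEAF-32 core, were also in none, against 3.95%, but within 250 bp of the summit they were in 12.5%, against 8.37%. No window held the Motif 1 core GGTCACACT, found at 1.75% of all summits, but within 250 bp it was in 6.25%, against 5.79%. The letters AGATAAG, known as a site of factors named for them, were in none either, against 4.16%. The insulator protein CTCF has the core AGGTGGCGC, which was in none of the 16 and in 0.395% of all summits. Both strands were searched, and with 100 bp on each side every interval holds the share over all summits. No interval is given for the other window sizes. A match shows that the letters are present and nothing of what binds there, and the part of base composition in these shares was not tested.

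Other genes of the same machinery, in 5 lists of 34 genes, had strong summits at 7 of the 16 with a candidate (43.8%), or 20.6% of the 34, near the 42.1% and 22.3% over all protein-coding genes. Of 12 RNA polymerase II subunit genes 4 had one: Polr2B, the second largest subunit, at 575.3 with ranks of 612, 650 and 552, Polr2F at 253.0, Polr2H at 193.7 and Polr2J at 193.5. The Polr2H summit was 195 bp upstream but 64 bp from the TSS of CG11247, and lay in no region of replicate 3. The Polr2J summit was 189 bp upstream but 46 bp from the TSS of CG15141, and lay in no region of replicate 1. TFIIH had 1 of 10, at Ssl1, whose signal of 2092 (ranks 17, 16 and 28) is above that of every member. That summit is 194 bp upstream of Ssl1 but 89 bp from the TSS of Chro, a chromatin protein gene. Of the TBP family, Trf2 had a strong summit of 376.2 at 691 bp downstream of a TSS, 135 bp from that of lawc, and Tbp itself a candidate of 79.52. Among the Mediator genes outside the MED names, skd of the kinase module had a strong summit of 194.6. It was 518 bp upstream of skd but 37 bp from the TSS of Pdss2, with ranks of 12924, 6790 and 1785. Cdk8 (66.1) and ix (95.12) had candidates and CycC and kto had none. None of the 4 testis TAF genes outside the members had a strong summit, and 2 of them had a candidate. None of the 5 lists had a strong summit at all of its genes.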

How the data were processed

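The authors' narrowPeak region lists on dm6 were used: 1 per replicate, 1 pooled over the 3 replicates, and the optimal list. Each region's signal is the value in the deposited files, per the deposited README files derived from the replicates' alignments and 1 further alignment. The aligner, peak caller, versions and threshold were not given in the sources used here. Depth is unknown, because read counts were not used. The 5 dm3 lists were not used. Sonication had a size range of 200 to 800, with no unit, per the labels.

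Summits were compared with Ensembl release 115 gene models in Python 3.11.15 with numpy 2.4.6, pandas 2.3.3, scipy 1.17.1 and matplotlib 3.10.9, and the assignment was tested on simulated summits. The distance is negative upstream. Every member with a strong summit is named, the 10 of highest signal in full, and sequences are of the strongest outside 1 chromosome arm and of a pair sharing a summit. The members and lists were chosen with earlier results of these data known, and list symbols were updated to current names after the gene models were read. Genes are not independent, and no test over genes was made. The alternatives were other windows, TSSs, assignments, strong sets, replicate regions and sequence windows.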

Additional observations from a re-analysis of the deposited data

How the results depend on the processing

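The count of 17 genes stayed between 15 and 19 with a window of 500 or 2000 bp, 1 TSS per gene or gene bodies counted. The share of those with a candidate was 51.6% at 500 bp, against 40.9% over all genes, and 51.4% at 2000 bp, against 45.0%. With 1 TSS per gene it was 44.1%, against 39.2%, and with gene bodies 47.2%, against 45.5%. Counting genes without a candidate too, the members were at 30.6 to 38.8% and all genes at 18.9 to 27.8%. The 500 bp window lost MED15, 1 TSS per gene lost MED6 and TfIIA-L, and the 2000 bp window gained Taf12 and TfIIEalpha. Giving each summit to the nearest coding TSS alone left 8 genes and a share of 32.0% of those with a candidate, now below the 38.3% over all genes. Counting genes without a candidate too, it was 16.3%, against 17.0%. MED15, MED27, MED30, MED31, MED6, Taf10, Taf11, Taf5 and TfIIB were lost, each because another coding TSS is nearer. The 2609 strong regions of highest signal left 9 genes (25.7% of those with a candidate, against 24.6% over all genes). Those supported in all 3 replicates also left 9 genes (25.7%, against 26.7%). Counting genes without a candidate too, both were 18.4% of the members, against 13.1% and 14.1% of all genes. Requiring both replicates that remain when 1 is left out gave 9 to 13 genes, the lowest without replicate 1 and the highest without replicate 3. These were 25.7 to 37.1% of those with a candidate, against 29.1 to 32.0% over all genes. Counting genes without a candidate too, they were 18.4 to 26.5%, against 15.5 to 17.0%. All 3 replicates held the best summit of 15 of the 17 genes when any region counted and of 13 with the top 10438. No share over all genes is given for these settings. The E-box share was 0.0% within 50 bp of the summit, against 5.04% over all summits. Within 250 bp, DRE (12.5%, against 8.37% over all summits) and the Motif 1 core (6.25%, against 5.79%) turned from below to above the share over all summits, and the BEAF-32 core (56.2%, against 58.2%) from above to below it. The 7 other machinery genes became 3 under the nearest TSS or the higher signal, and 4 with all 3 or any 2 of the replicates, alternatives added after seeing the data. The median signal of 278.6 ran from 203.1 to 446.5, the highest with the 2609 regions, with support by all 3 replicates and without replicate 1 (442.1 without replicate 2), settings that drop members of low signal. The median distance of 154 bp ran from 102.5 bp, with the nearest TSS alone, to 189 bp. Genes with a candidate numbered 31 to 37. Mean GC content was 30.6% within 50 bp of the summit and 37.7% within 250 bp, against 36.7% and 40.2% over all summits. Depth is unknown, so a weak site cannot be told from a poorly sampled one. No paired analysis was possible because there is 1 group.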

Other observations

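Taf2, a TFIID subunit gene, had a region of high rank in replicate 3 alone. It ranked 1644 there with a signal of 71.98 (chr3L:9888791-9889214), and its summit lay in the 5′ UTR of CalpB, a calpain protease gene, within 1000 bp of the Taf2 TSS. No region of replicate 1 or replicate 2 held that summit, and the nearest pooled candidate to Taf2 was 8958 bp away. Over the whole lists, 232 of the 5219 top regions of replicate 3 (4.45%) had a summit in no pooled region, against 79 (1.51%) in replicate 1 and 107 (2.05%) in replicate 2.

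The nearest candidate to TfIIFbeta, 6689 bp away, was the strong summit of MED7 (signal 177.6).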
